A study of Arabidopsis thaliana with 30 samples.

Results

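The comparison described here set protoplasts that carried a SHP2 reporter (YFP-POS, 3 libraries) against intact inflorescences (NO-SORT, 4 libraries), which are 7 of the 15 RNA-seq libraries of the series. The members were chosen by their group labels. Sorted protoplasts without the reporter signal (YFP-NEG, 4 libraries) served as the reference that separates genes of the reporter domain from genes that differed in protoplasts as such. Plants of every group had the genotype of 1 cross: pSHP2-GAL4 and pUAS-3xYpet had been brought together with pAP1-AP1::GR and the ap1 and cal mutations. In these plants the SHP2 promoter drives the yeast activator GAL4, and GAL4 drives 3 linked copies of the yellow fluorescent protein Ypet. All groups, the controls included, thus carry the ap1 and cal mutations and an AP1 protein fused to the glucocorticoid receptor. YFP-POS and YFP-NEG protoplasts were separated by fluorescence-activated cell sorting and collected in Trizol, whereas NO-SORT inflorescences were frozen in liquid nitrogen. Plant age and any inducing treatment are not given in the sources used here. The labels call the libraries biological replicates and do not say whether they came from separate plants or pools, so p-values measure the spread between these libraries.

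SHP2 is a MADS-box gene of carpels, expressed in the medial domain of the gynoecium, where the carpel margin meristem gives rise to placenta, ovules, septum and transmitting tract. Protoplasts are cells freed of their walls by enzymes. Digestion, loss of cell contact and handling are known to induce wound, touch and stress genes within minutes, and cell types with thick walls are released poorly. A gene can therefore differ between sorted protoplasts and intact tissue because the sorted cells are another part of the flower, because of the preparation, or both.

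Each difference between YFP-POS and NO-SORT, as a log2 fold change, is the sum of 2 steps. The domain step is YFP-POS minus YFP-NEG, and both sides of it are sorted protoplasts. The protoplast step is YFP-NEG minus NO-SORT. It holds digestion, sorting, unequal release of cell types, the different collection and the absence of reporter cells from YFP-NEG, and these cannot be told apart. Both steps use the same YFP-NEG libraries, so an error in YFP-NEG moves them in opposite directions. A gene was called where edgeR's quasi-likelihood test gave a Benjamini-Hochberg adjusted p under 0.05 and a difference of at least 2-fold. Levels are counts scaled to a common library size (CPM) after TMM scaling, with the mean ± SD over the 3 or 4 libraries of a group, and are compared within a gene only. In these bulk libraries, fewer cells of a type and less RNA per cell cannot be told apart.

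Library totals were 13969774 to 19011084 counts in YFP-POS, 13422821 to 15774591 in YFP-NEG and 14941768 to 16692127 in NO-SORT. The gene that names the reporter was checked first. SHP2 stood at 40.9, 35.0 and 32.3 CPM in the 3 YFP-POS libraries, 1.15, 2.25, 1.51 and 2.45 in YFP-NEG and 5.05, 7.64, 9.01 and 5.10 in NO-SORT. Every YFP-POS library lay above all libraries of the other groups, and the log2 fold change over NO-SORT was 2.54 ± 0.22 (SE), adjusted p = 3.76e-07. Of all genes tested, 21.9% likewise lay above NO-SORT without overlap of the CPM ranges and 27% lay below it. AP1 stood at 33.6, 31.4 and 55.4 CPM in the 3 YFP-POS libraries, 188, 178, 171 and 158 in YFP-NEG and 168, 121, 95.6 and 132 in NO-SORT. AP1 reads can come from the transgene and from the mutated locus, and the level was lower in YFP-POS (log2 fold change -1.57 ± 0.22 (SE), adjusted p = 3.62e-05). CAL averaged 1.16 ± 0.119 CPM in YFP-POS, 9.14 ± 1.96 in YFP-NEG and 5.24 ± 1.17 in NO-SORT. 2 libraries stood apart. ALL-SORT replicate 4, labelled as sorted protoplasts of all kinds, correlated with the NO-SORT libraries at r = 0.963 to 0.984 and with its own group at 0.949 to 0.971. Its summed CPM of wound and touch genes was 2194, above the 72.9 to 280.2 of NO-SORT and below the 7911 to 11400 of the other ALL-SORT libraries. What ALL-SORT replicate 4 contains is thus in doubt, and it was left out of the ALL-SORT reference. NO-SORT replicate 1 was the NO-SORT library most like it (0.984, against 0.963 to 0.967 for the others), and its summed CPM of wound and touch genes was 280.2 against 72.9 to 167.4 in the others. Without NO-SORT replicate 1, 1429 genes were higher and 2834 lower in YFP-POS than in NO-SORT, against 1604 and 2499 with it. A shift of this kind was not particular to that library. The counts were 1351 and 3117 without YFP-POS replicate 3, and 1393 and 2788 without YFP-NEG replicate 1.

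YFP-POS and NO-SORT differed in 4103 of the 19351 genes tested, which is 21.2%. Of these, 1604 (8.29% of those tested) were higher in YFP-POS and 2499 (12.9%) lower. The split depends on the minimum fold: with none, 5504 genes were higher and 4405 lower, so that 55.5% of the calls were higher in place of 39.1%. With library totals in place of TMM scaling the higher calls fell from 39.1% to 28.8% of all calls, and the median over all genes of the log2 fold change moved from 0.08 to -0.14. In the domain step 21.3% of the genes tested were called and in the protoplast step 14.4%. The domain step held 1436 higher calls (7.42%) and 2682 lower calls (13.9%). The protoplast step held 1666 higher (8.61%) and 1123 lower (5.80%).

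At the 2-fold minimum, the genes higher in YFP-POS than in intact tissue were mostly genes of the protoplast step, and the genes lower were mostly genes of the domain step. With no minimum fold the order of the higher genes turned, to 2461 domain and 2277 protoplast genes. Among the 1604 higher genes, 984 (61.3%) were called higher in YFP-NEG than in NO-SORT and not higher in YFP-POS than in YFP-NEG; they are termed protoplast genes. Another 386 (24.1%) were called higher in YFP-POS than in YFP-NEG and not higher in YFP-NEG than in NO-SORT, and are termed domain genes, 25 (1.56%) were called higher in both steps, and 209 (13%) in neither. Among the 2499 lower genes the same rules, turned round, gave 1547 domain genes (61.9%), 355 protoplast genes (14.2%), 86 lower in both steps (3.44%) and 511 called in neither step (20.4%). Protoplast genes that were higher had a median log2 fold change of 2.43 over NO-SORT, and their medians were 3.17 in the protoplast step and -0.59 in the domain step. Domain genes that were higher had a median of 1.57 over NO-SORT, and medians of -0.19 and 1.84 in these steps. Medians of the steps need not add up to the median of their sum, and the calls that define a class also set the size of its steps.

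In another 669 genes the steps ran in opposite directions, each of them called, and the sum was not called. Of these opposed genes, 331 were higher in YFP-POS than in YFP-NEG and lower in YFP-NEG than in NO-SORT, with medians of 1.38 and -1.32, and a median of 0.09 over NO-SORT. The other 338 lay below YFP-NEG in YFP-POS and were higher in YFP-NEG than in NO-SORT, with medians of -1.80 and 1.74, and a median of -0.05 over NO-SORT. Of the 1436 genes higher in YFP-POS than in YFP-NEG, 411 (28.6%) were also called higher than in NO-SORT. Of the 2682 lower genes, 1633 (60.9%) were also called lower.

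**Figure D1:**
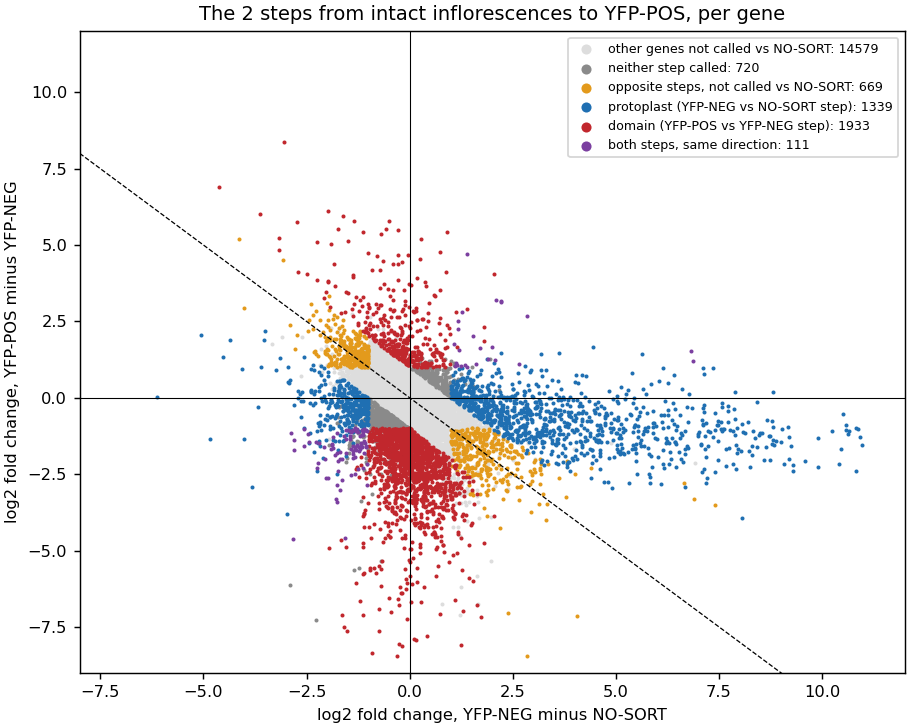
Each dot is 1 of the 19351 genes tested, placed by its log2 fold change in the protoplast step (horizontal) and in the domain step (vertical), and coloured by class; on the dashed line the steps cancel. Protoplast genes spread along the horizontal axis and those that were higher lie mostly below 0 on the vertical one, and the 669 opposed genes lie mostly along the dashed line.

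The domain genes with the largest rise over intact tissue were WAG2, HEC3, DOF4.7, AT4G14301 and AT3G49270. WAG2 stood at 25.6, 33.6 and 19.7 CPM in the 3 YFP-POS libraries, 0.320, 1.42, 0.819 and 0.446 in YFP-NEG and 0.328, 0.627, 0.548 and 0.996 in NO-SORT. WAG2, a protein kinase related to PINOID, was thus higher in every YFP-POS library than in any other, by 5.48 ± 0.37 (SE), adjusted p = 2.94e-08, while YFP-NEG and NO-SORT overlapped. HEC3 stood at 28.7, 37.2 and 23.0 CPM in the 3 YFP-POS libraries, 0.192, 0.524, 0.504 and 1.04 in YFP-NEG and 0.787, 0.684, 1.03 and 0.762 in NO-SORT. HEC3 encodes a bHLH factor needed for the female reproductive tract, and its rise was 5.29 ± 0.30 (SE), adjusted p = 5.39e-09. In ALL-SORT replicates 1 to 3 HEC3 stood at 4.58, 8.18 and 4.06 CPM, above every NO-SORT library and below every YFP-POS library. DOF4.7 stood at 32.9, 49.0 and 30.1 CPM in the 3 YFP-POS libraries, 0.576, 1.198, 0.567 and 1.19 in YFP-NEG and 0.787, 0.969, 1.89 and 0.762 in NO-SORT. DOF4.7, a Dof zinc finger factor, showed the same separation, at 5.19 ± 0.31 (SE) over NO-SORT. AT4G14301 averaged 11.1 ± 1.3 CPM in YFP-POS, 0.252 ± 0.200 in YFP-NEG and 0.379 ± 0.357 in NO-SORT. AT3G49270 stood at 29.1, 31.8 and 23.7 CPM in the 3 YFP-POS libraries, 0.320, 0.449, 0.189 and 1.19 in YFP-NEG and 0.131, 0.513, 4.50 and 0.469 in NO-SORT. In both genes NO-SORT replicate 3 lay above the other NO-SORT libraries and below every YFP-POS library.

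The 250 bases before the start of HEC3, from the RefSeq annotation of TAIR10.1, are shown because HEC3 was the domain gene of the medial gynoecium list with the largest rise. They held none of the 7 motifs searched, which says only that these letters are not in this window. It says nothing of domain genes as a class, whose shares are given below.
HEC3 promoter (a domain gene, chr5:3027115-3027364, minus strand): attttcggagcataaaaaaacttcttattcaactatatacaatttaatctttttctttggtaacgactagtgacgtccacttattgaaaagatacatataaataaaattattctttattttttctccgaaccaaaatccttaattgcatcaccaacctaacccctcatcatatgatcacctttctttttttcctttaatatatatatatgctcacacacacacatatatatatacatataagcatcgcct

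Genes of the medial gynoecium rose with the reporter. Of 18 listed genes, 14 were higher in YFP-POS than in NO-SORT against 8.29% of all genes tested, none was lower, and 13 of the 14 were domain genes; the list median was 2.17 against 0.08 over all genes. In the domain step 17 of 18 were higher against 7.42% of all genes, with a median of 2.53. The earlier results of these data were known when the list was drawn up. HEC2 stood at 89.9, 119 and 59.1 CPM in the 3 YFP-POS libraries, 0.703, 1.72, 0.756 and 2.30 in YFP-NEG and 4.53, 4.33, 8.22 and 4.75 in NO-SORT. HEC1 averaged 45.8 ± 10.8 CPM in YFP-POS, 0.781 ± 0.197 in YFP-NEG and 2.49 ± 0.904 in NO-SORT, and both HEC1 and HEC2 were without overlap between YFP-POS and NO-SORT. STY1 stood at 128, 155 and 83.9 CPM in the 3 YFP-POS libraries, 4.80, 5.92, 4.47 and 5.12 in YFP-NEG and 7.02, 9.24, 11.3 and 9.14 in NO-SORT. STY1, a style and auxin synthesis regulator, rose by 3.85 ± 0.19 (SE), adjusted p = 1.60e-09. SPT, the bHLH partner of HEC proteins, rose by 2.73 ± 0.14 (SE) from 33.1 ± 1.80 CPM in NO-SORT to 203 ± 45.6 in YFP-POS. NGA3, a B3 factor of style development, rose by 2.27 ± 0.16 (SE).

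SHP1, the closest relative of SHP2, and CRC, a YABBY factor of carpels, differed more from YFP-NEG than from NO-SORT. SHP1 stood at 124, 112 and 74.7 CPM in the 3 YFP-POS libraries, 1.41, 3.07, 2.14 and 5.87 in YFP-NEG and 5.18, 11.1, 13.02 and 6.86 in NO-SORT. The log2 fold change of SHP1 was 3.63 over NO-SORT and 5.14 over YFP-NEG. CRC stood at 290.1, 332 and 218 CPM in the 3 YFP-POS libraries, 16.3, 23.1, 12.1 and 19.8 in YFP-NEG and 87.9, 100.5, 119 and 103 in NO-SORT. CRC differed by 1.57 ± 0.18 (SE) from NO-SORT and by 4.04 ± 0.20 (SE) from YFP-NEG, and YFP-NEG lay -2.48 from NO-SORT. Such a drop in YFP-NEG was called for 6 of the 18 genes against 5.80% of all genes tested. YFP-NEG lacks the reporter cells that NO-SORT contains, and whether this accounts for the drop was not tested. In 4 listed genes the rise over NO-SORT was not called. STK, an ovule identity gene, stood at 4.37, 2.03 and 2.34 CPM in YFP-POS and at 0, 0.285, 3.47 and 0.176 in NO-SORT, where replicate 3 overlapped YFP-POS; without that library the log2 fold change was 4.24 (adjusted p = 0.000188) in place of 1.69 (adjusted p = 0.113). The boundary gene CUC1 and the zinc finger gene NTT differed from NO-SORT by 0.41 and 0.55, and from YFP-NEG by 1.35 and 1.56. ANT, an AP2 factor of ovule and organ growth, passed at 1.03 ± 0.11 (SE), and fell under 2-fold with 3 other scalings and on leaving out any of 5 libraries.

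Of 17 tested genes of auxin synthesis and transport, 5 were higher than in NO-SORT and 2 lower against 8.29% and 12.9% of all genes tested, with a median of 0.47, and the 5 were domain genes. TAA1 and YUC4 catalyse successive steps of auxin synthesis. TAA1 stood at 272, 254 and 201 CPM in the 3 YFP-POS libraries, 30.5, 36.4, 35.0 and 41.0 in YFP-NEG and 40.5, 43.0, 40.8 and 44.9 in NO-SORT. YUC4 averaged 29.1 ± 7.23 CPM in YFP-POS, 6.24 ± 1.82 in YFP-NEG and 7.50 ± 1.62 in NO-SORT. Both were without overlap between YFP-POS and NO-SORT, with log2 fold changes of 2.63 ± 0.12 (SE) and 2.08 ± 0.23 (SE). LAX1 stood at 223, 315 and 173 CPM in the 3 YFP-POS libraries, 21.8, 29.8, 21.7 and 26.1 in YFP-NEG and 36.7, 36.8, 30.9 and 39.3 in NO-SORT. LAX1, an auxin influx carrier, rose by 2.84 ± 0.18 (SE), adjusted p = 1.70e-08. PID, a protein kinase gene of auxin transport, rose by 1.46 ± 0.14 (SE). YUC2, a paralogue of YUC4, fell from 9.05 ± 0.890 to 2.14 ± 0.392 CPM, which is -1.95 ± 0.24 (SE) on the log2 scale. TAR1 and YUC5 had no count in any YFP-POS, YFP-NEG or NO-SORT library.

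**Figure D2:**
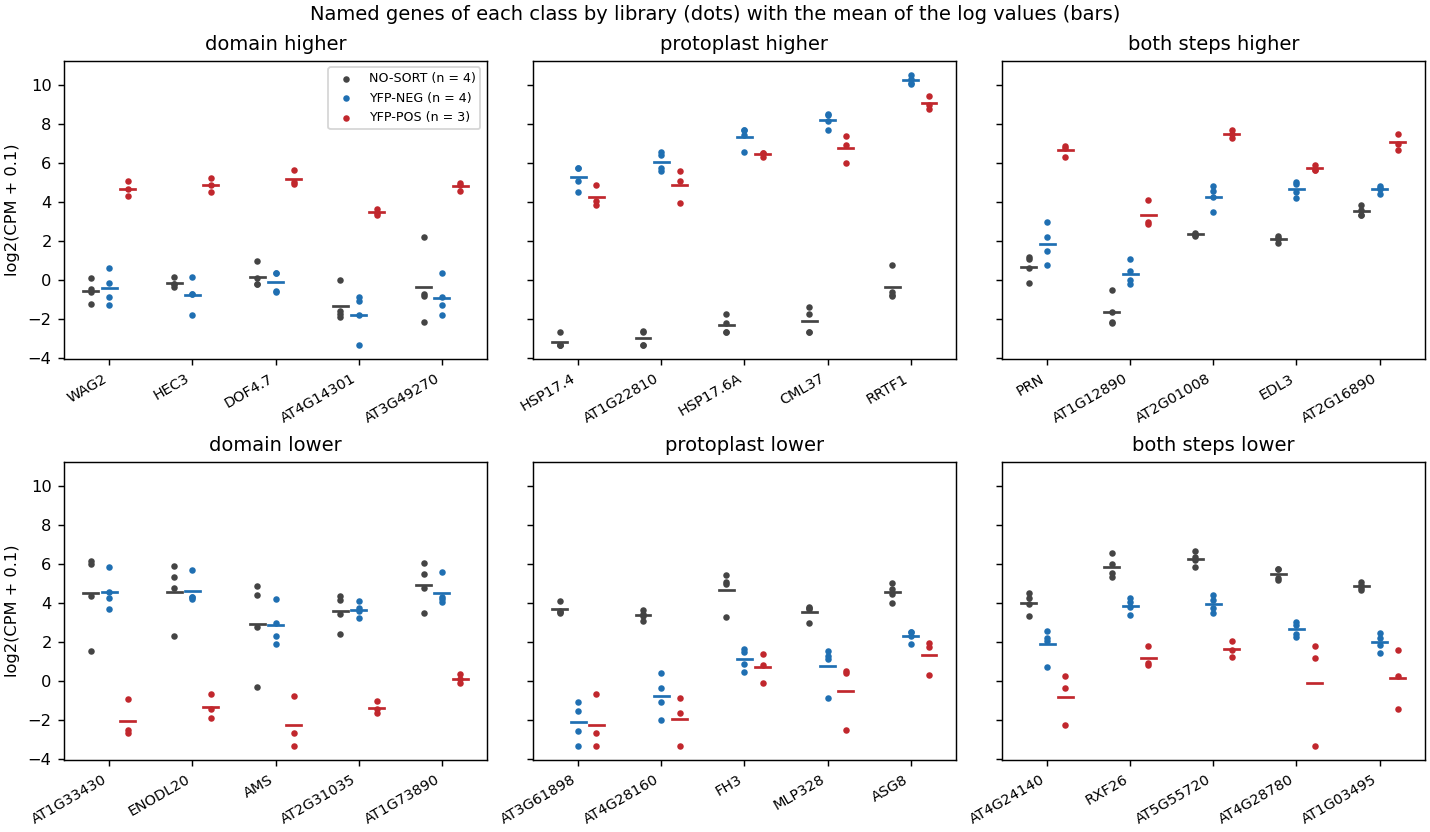
Dots are libraries, grouped as NO-SORT (grey), YFP-NEG (blue) and YFP-POS (red), on a log2(CPM + 0.1) axis, with bars at the mean of the log values, for the 5 named genes of 6 classes. In domain genes that were higher the grey and blue dots lie mostly together and the red dots apart. In domain genes that were lower the red dots lie lowest and the grey dots spread widely. The lowest grey dot of AMS lies close to its highest red dot. In protoplast genes the blue and red dots lie nearer to each other than to the grey dots, and in genes of both steps the 3 groups form a staircase.

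Genes of wounding and touch were high in both kinds of protoplast. All 25 listed genes were higher in YFP-POS than in NO-SORT against 8.29% of all genes, with a median log2 fold change of 5.46, and all 25 were protoplast genes. The count was 25 without NO-SORT replicate 1 and 23 without YFP-POS replicate 3. Their summed CPM was 72.9 to 280.2 in NO-SORT, 3618 to 5278 in YFP-POS and 9786 to 12620 in YFP-NEG. YFP-POS protoplasts had less of these transcripts than YFP-NEG protoplasts: 14 of the 25 were called lower in the domain step against 13.9% of all genes, and none higher, with a median of -1.29. With the replicate block, in which same-numbered YFP-POS and YFP-NEG libraries are paired, the count of lower genes was 18, and without YFP-POS replicate 1 it was 10. RRTF1 stood at 433, 502 and 684 CPM in the 3 YFP-POS libraries, 1036, 1243, 1467 and 1086 in YFP-NEG and 1.64, 0.570, 0.487 and 0.469 in NO-SORT. RRTF1, an ERF factor of redox and wound responses, was at most 1.64 CPM in intact tissue and at least 433 in YFP-POS, and every YFP-POS library lay below every YFP-NEG library. The domain step of RRTF1, -1.09 ± 0.24 (SE), fell under 2-fold without YFP-POS replicate 1 (-0.937) and without YFP-NEG replicate 3 (-0.984). CML37 stood at 63.1, 119 and 165 CPM in the 3 YFP-POS libraries, 285, 346, 357 and 204 in YFP-NEG and 0.197, 0.285, 0.0609 and 0.0586 in NO-SORT. CML37, a calmodulin-like protein, rose by 9.64 ± 0.46 (SE), adjusted p = 9.60e-10. WRKY40 stood at 45.8, 68.0 and 116 CPM in the 3 YFP-POS libraries, 345, 385, 492 and 330.3 in YFP-NEG and 0.918, 0.285, 0.365 and 0.117 in NO-SORT. WRKY40, a WRKY factor of defence, lay -2.27 ± 0.30 (SE) from YFP-NEG in YFP-POS.

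Several of these genes were close to 0 in intact tissue, where the ratio is limited by counting. AT1G22810, annotated as an ERF family factor, had 1562 counts in the YFP-POS libraries and 2 in NO-SORT, a ratio of 1050 between counts scaled to equal depth (exact 95% interval 291 to 8710, for counting error only). MYB15, a MYB factor of cold and defence responses, had 1176 and 2 counts, a ratio of 794 (219 to 6560). PUB22, a ubiquitin ligase that dampens immune signalling, had no NO-SORT count and was at least 162-fold higher in YFP-POS, taking a floor of 3 counts over the group. At higher levels, TCH4 stood at 624, 881 and 735 CPM in the 3 YFP-POS libraries, 2291, 2935, 2411 and 2108 in YFP-NEG and 95.5, 9.86, 61.1 and 15.9 in NO-SORT. TCH4 is a touch-induced wall-loosening enzyme; the rise over NO-SORT was 4.15 ± 0.56 (SE), and the drop from YFP-NEG was not called without YFP-POS replicate 1 (adjusted p = 0.0607). WRKY6 rose least, by 2.14 ± 0.56 (SE), adjusted p = 0.0051, and was not called without YFP-POS replicate 3 (adjusted p = 0.0792).

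Heat shock genes were also high in both kinds of protoplast. Of 16 tested genes, 15 were higher in YFP-POS than in NO-SORT against 8.29% of all genes and none lower, with a median of 5.24, or 4.80 with HSP21, absent from NO-SORT, at its bound of 26.1-fold. All 16 were higher in YFP-NEG than in NO-SORT against 8.61% of all genes. In the domain step 2 were lower and none higher, near the 13.9% of all genes that were lower, and the count of lower genes was not stable: it was 4 with limma-voom, 5 with RLE scaling or DESeq2, 6 with library totals, 7 with upper-quartile scaling and 8 with the replicate block. HSP17.4 stood at 14.3, 16.2 and 28.8 CPM in the 3 YFP-POS libraries, 33.2, 53.6, 54.0 and 22.5 in YFP-NEG and 0, 0, 0.0609 and 0 in NO-SORT. HSP17.4, a cytosolic small chaperone, had 981 counts in YFP-POS against 1 in NO-SORT, a ratio of 1320 (237 to 52400). HSP17.6A stood at 79.8, 90.9 and 91.4 CPM in the 3 YFP-POS libraries, 170, 208, 204 and 93.6 in YFP-NEG and 0.197, 0.0570, 0.122 and 0.0586 in NO-SORT. HSP17.6A is of the same family, whose close copies can share reads. HSFA2, the factor that sustains the heat response, averaged 91.4 ± 34.5 CPM in YFP-POS, 97.5 ± 30.7 in YFP-NEG and 3.33 ± 1.43 in NO-SORT. HSP70 (AT3G12580) rose by 5.58 ± 0.26 (SE) and the disaggregase gene HSP101 by 4.38 ± 0.35 (SE). The 1 other tested gene was not called against NO-SORT. HSFB1 was on the list but not among the 16 tested, with no count in any of these 11 libraries.

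Promoters of 3 protoplast genes are shown because their classes of stress response are tied to known motifs; they come from the same RefSeq annotation of TAIR10.1 and end at the base before the gene start. Capitals mark TTGAC (the W box core bound by WRKY factors), CACGTG (the G box) and GAANNTTC (a heat shock element unit), on either strand.
RRTF1 promoter (TTGAC at 160 and 55 bases before the start and CACGTG at 134, chr4:16451626-16451875, plus strand): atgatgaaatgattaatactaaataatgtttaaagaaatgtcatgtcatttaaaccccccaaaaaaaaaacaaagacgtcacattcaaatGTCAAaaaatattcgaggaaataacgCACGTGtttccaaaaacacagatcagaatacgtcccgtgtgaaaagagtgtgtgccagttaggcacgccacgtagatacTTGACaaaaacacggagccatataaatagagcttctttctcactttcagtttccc
AT1G22810 promoter (TTGAC at 189, 154, 108 and 57 bases before the start, chr1:8075038-8075287, minus strand): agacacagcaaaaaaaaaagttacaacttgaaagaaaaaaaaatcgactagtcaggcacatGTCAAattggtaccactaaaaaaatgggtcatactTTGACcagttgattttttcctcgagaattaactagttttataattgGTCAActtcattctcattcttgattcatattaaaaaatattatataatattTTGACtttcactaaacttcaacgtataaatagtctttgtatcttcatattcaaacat
HSP17.4 promoter (CACGTG at 216 and GAANNTTC at 99 and 18 bases before the start, chr3:16984868-16985117, minus strand): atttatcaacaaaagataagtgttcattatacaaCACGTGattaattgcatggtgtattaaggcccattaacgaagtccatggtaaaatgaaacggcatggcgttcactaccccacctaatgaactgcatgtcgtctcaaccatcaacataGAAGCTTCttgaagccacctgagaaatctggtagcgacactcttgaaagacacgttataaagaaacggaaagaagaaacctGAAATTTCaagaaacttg

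Over whole classes the same motifs were more frequent in protoplast genes that were higher than in all genes tested, as a description with no test. TTGAC lay in 57.5% of 977 protoplast windows, 44.1% of 376 domain windows and 44.3% of 19205 windows of all genes tested. ACGCGT, the CGCG box bound by calmodulin-binding CAMTA factors, lay in 6.96%, 2.66% and 1.80%, and GAANNTTC lay in 160, 38 and 1817 of the same windows (16.4% of the protoplast windows and 9.46% of all). For CACGTG the shares were 12.1%, 6.38% and 7.57%. The auxin response element TGTCTC differed little, at 11%, 11.2% and 10.6%. CCGAC, the drought-responsive element core, lay in 15.6%, 9.57% and 13.1%, and the ERF site GCCGCC in 2.76%, 1.60% and 2%. Motifs could overlap each other and were searched on both strands, and a match is not a shown site.

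**Figure D3:**
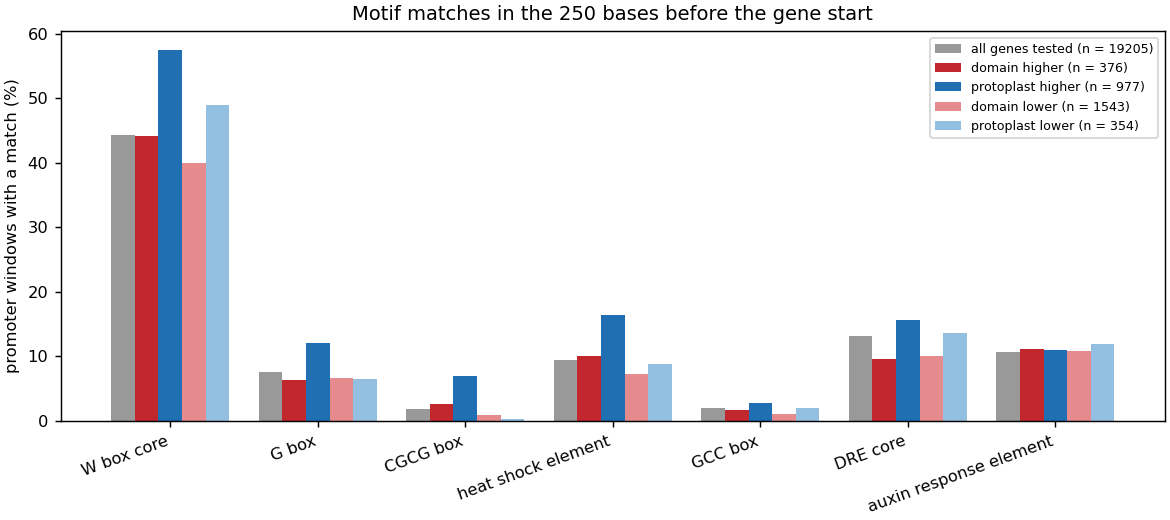
Bars give the percentage of promoter windows (250 bases before the gene start) with at least 1 match to each of 7 motifs, for all genes tested and for 4 classes. Protoplast genes that were higher stand above all genes tested for the W box core (57.5% against 44.3%), the CGCG box and the heat shock element, and the auxin response element is at 10.6% in all genes tested and 11% in protoplast genes that were higher.

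Of 23 tested genes of jasmonate synthesis and response, 13 were higher in YFP-POS than in NO-SORT and 2 lower against 8.29% and 12.9% of all genes tested, or 4 lower with upper-quartile scaling or library totals, with a median of 1.21, and 12 of the 13 were protoplast genes. LOX3 stood at 101, 185 and 362 CPM in the 3 YFP-POS libraries, 208, 368, 448 and 319.7 in YFP-NEG and 10.6, 8.95, 6.94 and 7.15 in NO-SORT. LOX3, a lipoxygenase of jasmonate synthesis, rose by 4.81 ± 0.38 (SE), and MYC2, the master factor of jasmonate responses, by 3.87 ± 0.18 (SE), adjusted p = 9.60e-10. JAZ1 stood at 239, 247 and 353 CPM in the 3 YFP-POS libraries, 762, 918, 1069 and 904 in YFP-NEG and 28.5, 17.45, 34.4 and 26.0 in NO-SORT. JAZ1, a repressor of MYC2, was higher than in NO-SORT and lower than in YFP-NEG in every YFP-POS library. LOX2, the lipoxygenase of leaf plastids, and VSP2, a storage protein under jasmonate control, went the other way, with -1.71 ± 0.38 (SE) and -1.67 ± 0.29 (SE). LOX2 was a domain gene, at 166 ± 109.6 CPM in YFP-POS, 515 ± 228 in YFP-NEG and 591 ± 52.0 in NO-SORT.

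Of 14 tested receptor and co-receptor genes, 10 were higher in YFP-NEG than in NO-SORT against 8.61% of all genes. In YFP-POS 5 were higher than in NO-SORT against 8.29%, or 3 with upper-quartile scaling or library totals. Against YFP-NEG, 6 were lower in YFP-POS, beside 13.9% of all genes. SOBIR1 stood at 99.4, 146 and 223 CPM in the 3 YFP-POS libraries, 306, 473, 518 and 407 in YFP-NEG and 25.8, 16.7, 16.1 and 15.0 in NO-SORT. SOBIR1, a co-receptor of receptor-like proteins, rose by 3.21 ± 0.27 (SE). The flagellin receptor gene FLS2 lay below NO-SORT in YFP-POS (-1.39 ± 0.37 (SE), adjusted p = 0.00603), at under 2-fold (-0.996) without YFP-POS replicate 1. Of 20 osmotic and abscisic acid genes, 3 were higher than in NO-SORT and 4 lower against 8.29% and 12.9% of all genes tested, and 5 were opposed genes. In the domain step 10 were lower and 1 higher against 13.9% and 7.42%. In the protoplast step 7 were higher and 1 lower against 8.61% and 5.80%. Their summed CPM was 1319 to 1628 in YFP-POS, 2494 to 2760 in YFP-NEG and 2131 to 2254 in NO-SORT. COR47 stood at 35.0, 34.2 and 45.0 CPM in the 3 YFP-POS libraries, 146, 182, 199.5 and 158 in YFP-NEG and 13.7, 23.3, 29.3 and 21.9 in NO-SORT. COR47, a dehydrin, was raised in YFP-NEG (3.02 ± 0.19 (SE)) and not called against NO-SORT in YFP-POS (0.91 ± 0.19 (SE)); it was called without NO-SORT replicate 3 (1.07). Another dehydrin gene, ERD10, remained above NO-SORT by 1.48 ± 0.20 (SE). The proline synthesis gene P5CS1 was a domain gene and fell by 1.95 on the log2 scale. Of 24 genes of the primary wall, 2 were higher than in NO-SORT and 3 lower, close to the 8.29% and 12.9% of all genes tested, or 6 lower with upper-quartile scaling or library totals. XXT1, a xyloglucan xylosyltransferase, averaged 188 ± 19.3 CPM in YFP-POS, 139.9 ± 12.3 in YFP-NEG and 36.8 ± 9.94 in NO-SORT, and the cellulose synthase gene CESA1 differed from NO-SORT by 0.27 ± 0.17 (SE).

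Genes of the epidermis were low in YFP-NEG and close to intact tissue in YFP-POS. Against NO-SORT, 1 of 14 listed genes was higher and none lower, beside 8.29% and 12.9% of all genes tested, with a median of -0.09. In the protoplast step 12 of the 14 were lower against 5.80% of all genes, with a median of -1.44, and in the domain step 9 were higher against 7.42%, with a median of 1.52. The counts were 10 and 8 without NO-SORT replicate 1. Their summed CPM was 3809 to 5544 in NO-SORT, 1269 to 1614 in YFP-NEG and 3280 to 4099 in YFP-POS, so YFP-POS overlapped NO-SORT and YFP-NEG did not. CER1 stood at 375, 546 and 526 CPM in the 3 YFP-POS libraries, 58.3, 82.5, 86.1 and 85.8 in YFP-NEG and 495, 426, 354 and 368 in NO-SORT. CER1 makes the alkanes of cuticular wax; it lay -2.35 ± 0.18 (SE) from NO-SORT in YFP-NEG, 2.70 ± 0.19 (SE) from YFP-NEG in YFP-POS, and 0.35 ± 0.18 (SE) from NO-SORT in YFP-POS. ATML1 stood at 143, 142 and 189.9 CPM in the 3 YFP-POS libraries, 50.5, 59.8, 64.9 and 55.4 in YFP-NEG and 225, 143, 117 and 161 in NO-SORT. ATML1, a homeodomain factor of epidermal identity, gave -1.44, 1.53 and 0.09 for the same differences. PDF1 stood at 844, 836 and 1166 CPM in the 3 YFP-POS libraries, 333, 336, 309 and 357 in YFP-NEG and 1648, 1164, 1089 and 1530 in NO-SORT. PDF1 is a protein of the outermost cell layer, and its YFP-NEG levels were likewise the lowest of the 3 groups.

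The other opposed epidermal genes were PDF2, FDH, LTP1 and ACR4. ACR4, a receptor kinase of the surface layer, averaged 50.1 ± 10.4 CPM in YFP-POS, 14.3 ± 1.88 in YFP-NEG and 60.3 ± 12.2 in NO-SORT, and FDH, a cuticle fatty acid elongase, averaged 431 ± 65.5 CPM in YFP-POS, 119.8 ± 5.28 in YFP-NEG and 401 ± 93.3 in NO-SORT. BDG, a cuticle hydrolase, was the listed gene that also rose over intact tissue: BDG stood at 70.4, 102 and 74.3 CPM in the 3 YFP-POS libraries, 7.03, 10.9, 10.8 and 12.1 in YFP-NEG and 32.0, 25.6, 22.9 and 27.7 in NO-SORT. Its difference from NO-SORT was 1.72 ± 0.18 (SE), adjusted p = 2.33e-06. CER6, an elongase of wax synthesis, averaged 105 ± 28.5 CPM in YFP-POS, 61.2 ± 11.1 in YFP-NEG and 225 ± 49.7 in NO-SORT, and its difference from NO-SORT, -0.98 ± 0.22 (SE), passed 2-fold under 3 other scalings and on leaving out any of 5 libraries. With ALL-SORT replicates 1 to 3 in place of YFP-NEG, 9 of the 14 were lower than NO-SORT and 3 were higher in YFP-POS than in that reference. Over all genes tested there, 865 were lower than NO-SORT and 298 higher in YFP-POS than in that reference.

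**Figure D4:**
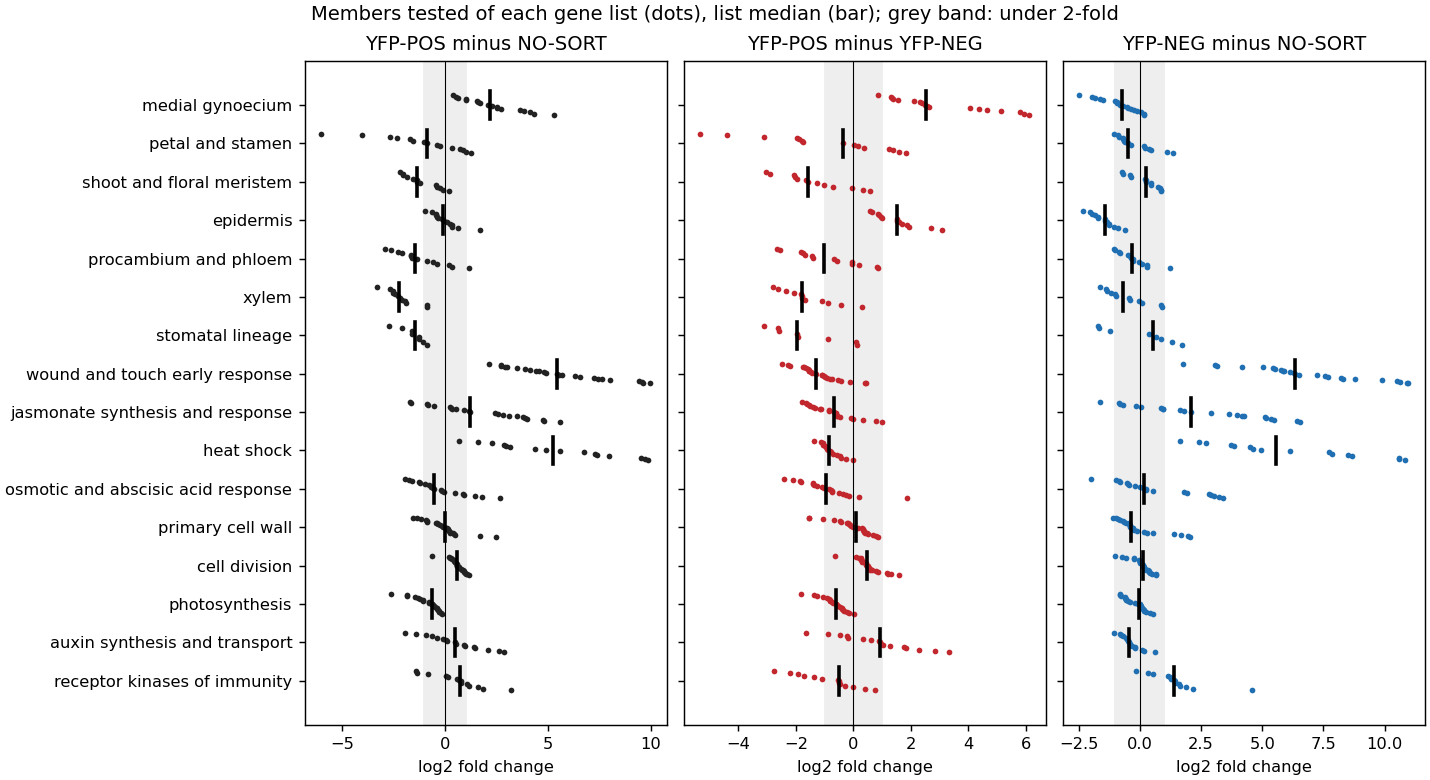
Dots are the tested members of 16 gene lists and black bars their medians, on a log2 fold change axis, for YFP-POS minus NO-SORT, the domain step and the protoplast step; the grey band is under 2-fold. The epidermis sits near 0 in the left panel, above 0 in the middle one and below 0 in the right one; the wound list lies wholly above the grey band in the left and right panels. Values of genes with no NO-SORT count are fitted and are no bounds.

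Of 12 tested xylem genes, 10 were lower against 12.9% of all genes and none higher, with a median of -2.23, and 6 of the 10 were domain genes; the count was 6 at an adjusted p under 0.01. Summed CPM was 69.3 to 133.8 in NO-SORT, 75.8 to 139.6 in YFP-NEG and 15.9 to 28.6 in YFP-POS. ACL5 stood at 10.5, 10.4 and 14.0 CPM in the 3 YFP-POS libraries, 66.9, 85.8, 104 and 86.3 in YFP-NEG and 56.4, 50.5, 38.2 and 50.2 in NO-SORT. ACL5 makes thermospermine, which delays xylem maturation, and its log2 fold change was -1.95 ± 0.18 (SE), adjusted p = 8.47e-07. IRX1 stood at 0.0546, 0.226 and 1.60 CPM in the 3 YFP-POS libraries, 1.47, 2.17, 5.73 and 4.38 in YFP-NEG and 8.33, 8.32, 5.72 and 5.51 in NO-SORT. IRX1, a cellulose synthase of secondary walls, had its highest YFP-POS value in replicate 3, still below every NO-SORT library. The secondary wall cellulose synthase gene IRX3 differed by -0.89 ± 0.35 (SE) and was not called. The defining factors SND1 and MYB83 had no count in YFP-POS; SND1 had none in the other 2 groups either.

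Of 14 procambium and phloem genes, 7 were lower and 1 higher than in NO-SORT against 12.9% and 8.29% of all genes tested, with a median of -1.48, and 5 of the 7 were domain genes. The cambium regulator gene WOX4 fell from 6.17, 11.3, 9.86 and 11.1 CPM in NO-SORT to 0.437, 1.28 and 1.77 in YFP-POS, and ATHB8, a procambium factor, from 48.1 ± 7.43 to 13.9 ± 4.42. SUC2, the sucrose carrier of phloem companion cells, stood at 2.84, 3.69 and 16.8 CPM in YFP-POS, with replicate 3 close to the NO-SORT range of 18.17 to 24.47. Its call (-1.36 ± 0.52 (SE), adjusted p = 0.0384) was lost on leaving out any of YFP-POS replicates 1 and 2 and NO-SORT replicates 2, 3 and 4. Of 8 tested stomatal genes, 5 were lower than in NO-SORT against 12.9% of all genes and none higher, of which 2 were domain and 3 protoplast genes. FAMA, a guard cell factor, was lower through the domain step, at 1.49 ± 0.838 CPM in YFP-POS, 13.6 ± 5 in YFP-NEG and 11.03 ± 2.17 in NO-SORT. SPCH and TMM, which act at the start of the stomatal lineage, were instead low in both kinds of protoplast: TMM stood at 7.48, 15.3 and 15.8 CPM in the 3 YFP-POS libraries, 12.9, 11.5, 11.1 and 15.6 in YFP-NEG and 54.6, 40.1, 31.0 and 44.9 in NO-SORT. SPCH averaged 3.25 ± 2.45 CPM in YFP-POS, 3.16 ± 0.757 in YFP-NEG and 10.8 ± 1.77 in NO-SORT.

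Of 15 petal and stamen genes, 7 were lower in YFP-POS than in NO-SORT and 2 higher against 12.9% and 8.29% of all genes tested, with a median of -0.87, and 6 of the 7 were domain genes. In the domain step 4 were higher and 7 lower against 7.42% and 13.9% of all genes tested. Their summed CPM was 1051 to 1098 in YFP-POS, within the 1000 to 1222 of NO-SORT. The B-class genes AP3 and PI, which specify petals and stamens, differed by -1.72 ± 0.15 (SE) and -1.58 ± 0.15 (SE). AP3 stood at 45.5, 49.0 and 65.2 CPM in the 3 YFP-POS libraries, 204, 189.8, 222 and 209 in YFP-NEG and 205, 175, 182 and 199 in NO-SORT. AMS and DYT1, bHLH factors of the anther tapetum, were nearly absent: DYT1 stood at 0.164, 0.451 and 0.172 CPM in the 3 YFP-POS libraries, 6.78, 4.79, 5.67 and 5.35 in YFP-NEG and 1.57, 3.48, 6.75 and 6.62 in NO-SORT. DYT1 fell by 4.05 on the log2 scale. TPD1, a small secreted anther protein, was a protoplast gene at 1.26 ± 0.17 (SE), and its receptor gene EMS1 was 2-fold higher in YFP-POS (1.004 ± 0.14 (SE)), a call that each of 3 other scalings ended, as did leaving out any of 6 libraries. Of 13 tested meristem genes, 8 were lower against 12.9% of all genes and none higher, with a median of -1.38, and all 8 were domain genes. The 8 include AP1 and CAL, which are mutated in the plants of every group, and AP1 reads can also come from the transgene. FUL stood at 23.5, 26.4 and 38.1 CPM in the 3 YFP-POS libraries, 132, 127, 133 and 125 in YFP-NEG and 99.3, 111, 120.3 and 127 in NO-SORT. TFL1, which keeps the inflorescence meristem indeterminate, averaged 3.93 ± 2.52 CPM in YFP-POS, 34.7 ± 19.1 in YFP-NEG and 20.02 ± 4.25 in NO-SORT, and the knotted-like gene BP 23.5 ± 10.9 CPM in YFP-POS, 77.2 ± 9.20 in YFP-NEG and 106 ± 13.6 in NO-SORT. STM, which maintains meristem cells, was not called, at 74.2 ± 7.66 CPM in YFP-POS, 80.0 ± 11.5 in YFP-NEG and 70.3 ± 7.84 in NO-SORT, which differed by 0.20 ± 0.13 (SE), adjusted p = 0.232.

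**Figure D5:**
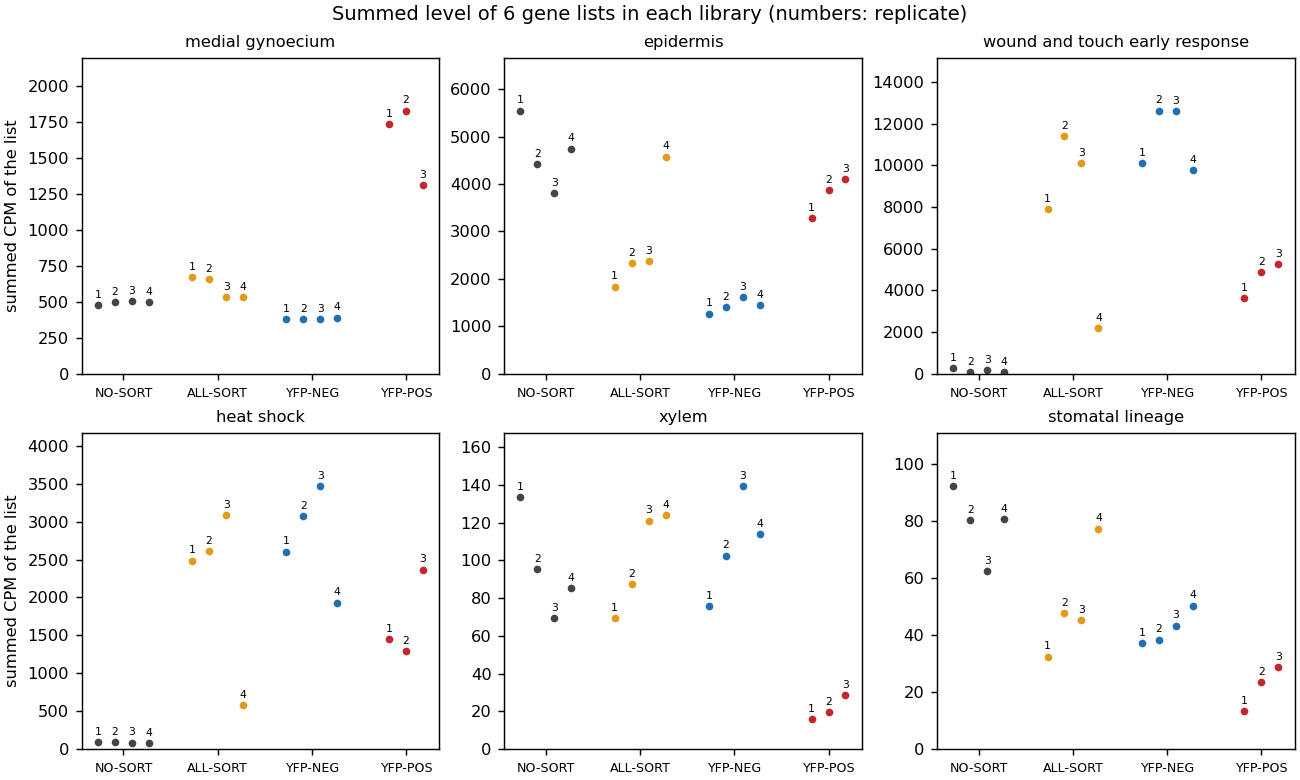
Dots give the summed CPM of 6 gene lists in each library, from 0 on a linear axis, with the replicate number above each dot, for NO-SORT, ALL-SORT, YFP-NEG and YFP-POS. Epidermal genes are low in YFP-NEG and in ALL-SORT replicates 1 to 3, xylem and stomatal genes are lowest in YFP-POS, and ALL-SORT replicate 4 lies apart from the other ALL-SORT libraries, on the side of NO-SORT, for the wound, heat shock and epidermis lists.

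The domain genes with the largest fall were AT1G33430, ENODL20, AMS, AT2G31035 and AT1G73890, and NO-SORT varied widely in them. AT1G33430 stood at 0.437, 0.0752 and 0.0572 CPM in the 3 YFP-POS libraries, 18.8, 12.7, 23.9 and 56.7 in YFP-NEG and 2.82, 20.6, 71.3 and 64.8 in NO-SORT. AT1G33430 is annotated as a galactosyltransferase. NO-SORT replicate 1 was low and still above every YFP-POS library, and the log2 fold change was -7.45 ± 1.22 (SE), adjusted p = 1.64e-04. With limma-voom neither AT1G33430 (adjusted p = 0.156) nor AMS (adjusted p = 0.142) was called against NO-SORT. Their domain steps were not called there either (adjusted p = 0.153 and 0.15). AMS stood at 0.491, 0 and 0.0572 CPM in the 3 YFP-POS libraries, 4.92, 3.67, 7.81 and 18.6 in YFP-NEG and 0.722, 6.84, 29.5 and 21.1 in NO-SORT. ENODL20 stood at 0.273, 0.526 and 0.172 CPM in the 3 YFP-POS libraries, 18.7, 19.5, 20.1 and 52.1 in YFP-NEG and 4.86, 27.2, 40.4 and 59.2 in NO-SORT. ENODL20 is an early nodulin-like protein. NO-SORT replicate 1 was the lowest NO-SORT library in all 5 genes. AT2G31035 averaged 0.300 ± 0.0903 CPM in YFP-POS, 12.9 ± 3.25 in YFP-NEG and 13.5 ± 6.88 in NO-SORT, and AT1G73890 averaged 1.01 ± 0.174 CPM in YFP-POS, 25.5 ± 14.6 in YFP-NEG and 37.1 ± 23.3 in NO-SORT.

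Of 22 photosynthesis genes, 8 were lower than in NO-SORT against 12.9% of all genes and none higher, with a median of -0.65; summed CPM was 8738 to 9933 in YFP-POS, 12360 to 17270 in YFP-NEG and 15760 to 18160 in NO-SORT. RBCS1A, a Rubisco small subunit, averaged 1601 ± 119 CPM in YFP-POS, 2237 ± 395 in YFP-NEG and 4078 ± 269 in NO-SORT, and RBCS2B averaged 43.0 ± 23.3 CPM in YFP-POS, 162 ± 42.6 in YFP-NEG and 288 ± 31.7 in NO-SORT. Rubisco small subunit and LHCB1 genes have close copies, so the share of each member is uncertain. Of 25 cell division genes, 3 were higher than in NO-SORT and none lower, near the 8.29% of all genes that were higher, with a median of 0.58; with library totals none was called higher, and with upper-quartile scaling 1 was. CDKB2;1, a mitotic kinase, rose by 1.08 ± 0.14 (SE), and the D-type cyclin gene CYCD3;1 differed by -0.63 ± 0.12 (SE). MCM4, of the replicative helicase, lay 1.60 above YFP-NEG and 0.57 above NO-SORT.

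Protoplast genes that fell included AT3G61898, AT4G28160, FH3, MLP328 and ASG8. AT3G61898 stood at 0, 0.526 and 0.0572 CPM in the 3 YFP-POS libraries, 0, 0.374, 0.252 and 0.0742 in YFP-NEG and 11.02, 17.2, 11.8 and 11.8 in NO-SORT. It was lower in both kinds of protoplast by about the same amount, with -6.12 ± 0.58 (SE) in the protoplast step and 0.03 ± 1.02 (SE) in the domain step. FH3 stood at 1.69, 0.827 and 2.52 CPM in the 3 YFP-POS libraries, 2.69, 1.27, 1.76 and 3.04 in YFP-NEG and 9.51, 31.0, 42.6 and 34.0 in NO-SORT. FH3 is a formin, an actin-nucleating protein. MLP328, a major latex protein-like gene, averaged 0.899 ± 0.716 CPM in YFP-POS, 1.93 ± 1.03 in YFP-NEG and 11.9 ± 2.81 in NO-SORT, ASG8 averaged 2.72 ± 1.39 CPM in YFP-POS, 4.95 ± 0.970 in YFP-NEG and 24.1 ± 7.00 in NO-SORT, and AT4G28160 averaged 0.228 ± 0.229 CPM in YFP-POS, 0.622 ± 0.481 in YFP-NEG and 10.5 ± 1.78 in NO-SORT. In ALL-SORT replicate 4 the 5 genes were at 7.41 to 24.3 CPM, against 0.0776 to 7.29 in the other ALL-SORT libraries.

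Genes that rose in both steps were few, 25 in all. PRN stood at 108, 117 and 80.0 CPM in the 3 YFP-POS libraries, 1.60, 4.57, 2.71 and 7.65 in YFP-NEG and 1.44, 2.17, 2.01 and 0.820 in NO-SORT. PRN, a pirin of the cupin fold, rose by 6.09 ± 0.38 (SE), adjusted p = 1.25e-08 over NO-SORT; its protoplast step, 1.38 ± 0.40 (SE), was not called without YFP-NEG replicate 4 (adjusted p = 0.053). AT2G16890 stood at 127, 181 and 102 CPM in the 3 YFP-POS libraries, 21.2, 28.4, 24.9 and 26.0 in YFP-NEG and 9.84, 10.04, 14.4 and 11.9 in NO-SORT. It is annotated as a UDP-glycosyltransferase. EDL3 stood at 49.4, 50.1 and 59.6 CPM in the 3 YFP-POS libraries, 18.3, 32.4, 29.98 and 23.0 in YFP-NEG and 4.20, 3.71, 4.44 and 4.75 in NO-SORT. EDL3, an F-box protein of abscisic acid signalling, had the larger share of its rise in the protoplast step (2.65 against 1.102). Its domain step fell under 2-fold with upper-quartile scaling (0.989), without YFP-POS replicate 3 (0.94) and without YFP-NEG replicate 1 (0.895). AT1G12890, an ERF family gene, averaged 10.6 ± 5.39 CPM in YFP-POS, 1.24 ± 0.562 in YFP-NEG and 0.271 ± 0.230 in NO-SORT. AT2G01008 averaged 179 ± 24.99 CPM in YFP-POS, 20.5 ± 7.40 in YFP-NEG and 4.97 ± 0.221 in NO-SORT.

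Of the 86 genes that fell in both steps, RXF26, AT5G55720, AT4G28780, AT4G24140 and AT1G03495 were named by the size of their fall. RXF26 stood at 1.80, 1.66 and 3.43 CPM in the 3 YFP-POS libraries, 10.4, 13.9, 19.1 and 16.4 in YFP-NEG and 93.2, 64.2, 46.5 and 40.4 in NO-SORT. RXF26 and AT4G28780 are annotated as GDSL lipases, and AT4G28780 averaged 1.87 ± 1.74 CPM in YFP-POS, 6.35 ± 1.57 in YFP-NEG and 45.9 ± 9.12 in NO-SORT. The domain step of AT4G28780 was not called with DESeq2 (adjusted p = 0.118). Nor was it with edgeR fitted to each pair of groups apart (adjusted p = 0.0661) or to all 15 libraries (adjusted p = 0.0753). AT5G55720 stood at 2.95, 2.26 and 4.002 CPM in the 3 YFP-POS libraries, 13.3, 11.1, 21.2 and 17.8 in YFP-NEG and 100.5, 82.6, 74.9 and 56.8 in NO-SORT. AT5G55720 is annotated as pectin lyase-like and fell by 2.26 on the log2 scale in the protoplast step and by 2.29 in the domain step. AT4G24140, an alpha/beta hydrolase family gene, averaged 0.624 ± 0.491 CPM in YFP-POS, 3.99 ± 1.80 in YFP-NEG and 16.9 ± 5.43 in NO-SORT, and AT1G03495, an acyltransferase family gene, 1.46 ± 1.38 CPM in YFP-POS, 4.03 ± 1.23 in YFP-NEG and 29.2 ± 3.88 in NO-SORT. The domain step of AT1G03495 was not called with the replicate block (adjusted p = 0.0778).

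Among opposed genes with the largest smaller step, AT4G22980, RBOH F and AT1G72910 were high in YFP-NEG only. RBOH F stood at 1.69, 3.84 and 9.15 CPM in the 3 YFP-POS libraries, 49.0, 49.4, 66.8 and 46.5 in YFP-NEG and 8.46, 9.01, 8.46 and 9.20 in NO-SORT. RBOH F is an NADPH oxidase that makes reactive oxygen species; YFP-POS overlapped NO-SORT, and the difference from it was -0.71 ± 0.36 (SE) (-1.71 and called without YFP-POS replicate 3). AT4G22980 averaged 1.48 ± 1.05 CPM in YFP-POS, 14.0 ± 1.42 in YFP-NEG and 1.55 ± 0.376 in NO-SORT. AT1G72910, a TIR domain gene, averaged 8.44 ± 3.03 CPM in YFP-POS, 55.2 ± 11.04 in YFP-NEG and 4.67 ± 4.28 in NO-SORT; it was called higher than in NO-SORT (1.69) without NO-SORT replicate 1. AT5G62210 and AT3G43690 had, like CER1, their lowest levels in YFP-NEG. AT5G62210 stood at 243, 343 and 236 CPM in the 3 YFP-POS libraries, 37.0, 32.4, 27.8 and 38.9 in YFP-NEG and 217, 168, 159.8 and 196 in NO-SORT. AT3G43690 averaged 42.6 ± 9.99 CPM in YFP-POS, 8.51 ± 1.72 in YFP-NEG and 66.3 ± 5.90 in NO-SORT, and every YFP-POS library of it lay below every NO-SORT library, at under 2-fold (-0.51 ± 0.17 (SE), adjusted p = 0.0181). RD22, a dehydration-responsive gene of the osmotic list, averaged 306 ± 37.9 CPM in YFP-POS, 88.2 ± 16.7 in YFP-NEG and 364 ± 55.9 in NO-SORT. Of the genes named, DOF4.7, AT4G14301, HSP17.4, AT1G22810, RRTF1, AT1G12890, AT2G01008, AT1G33430, AMS, AT2G31035, AT4G28160, SHP2, SHP1, STK, CRC, WRKY40, MYC2, HSP101, P5CS1, CESA1, BDG, IRX1, IRX3, ACL5, SOBIR1, FLS2, CDKB2;1 and CYCD3;1 overlap another annotated locus, and reads of such a pair can have been shared.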

How the data were processed

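RNA of 15 libraries was sequenced single-end in 2 lanes each, per the labels' protocols, from a directional kit. The authors deposited whole-number counts per locus, with 1 column for each biological replicate, in 2 tables that were joined by locus. Per the submitters' processing notes, TAIR10, FastQC, TopHat2 2.0.10, HTSeq, edgeR, DESeq2 and Cufflinks 2.2.1 were used. The use of strand in counting and the merging of lanes are not given in the sources used here.

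YFP-POS, YFP-NEG and NO-SORT, 11 libraries in all, entered 1 fit in edgeR 4.0.16 (R 4.3.3), with filterByExpr, TMM scaling and Benjamini-Hochberg adjustment over the 19351 genes tested of 33602 loci. Single-gene p-values are from its quasi-likelihood test. SE is the log2 fold change over the square root of F. CPM were scaled over all 15 libraries. The procedure was tested on simulated data. Symbols and promoter windows come from RefSeq TAIR10.1, which matched 32835 loci (97.7%).

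For each class, 5 genes were named by size of change in YFP-POS against NO-SORT among those with an adjusted p under 0.001, at least 4-fold, non-overlapping ranges and, in the group where the gene was higher, an average of 10 CPM or more. Opposed genes were named 3 per direction by the size of the smaller step. The members of the 16 lists and the lists themselves were chosen with earlier results of these data known. Precision is limited by depths of 13422821 to 19011084 counts and by 3 or 4 libraries a group. ALL-SORT was used as an alternative reference only.

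Same-numbered libraries of YFP-POS and YFP-NEG deviated together from their group means (r = 0.361, 0.263 and 0.305). The numbers were therefore taken as pairs there from the data, but only in the settings with a replicate block. The main fit was unpaired, so its SE, p-values and calls of the domain step ignore this pairing. For YFP-POS and NO-SORT r was 0.018, -0.018 and -0.108, and these were not paired. No 2 libraries held identical counts.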

Additional observations from a re-analysis of the deposited data

Results flagged for a closer look

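Of 243 groups of 4 values examined, 23 held a library whose gap to its nearest neighbour, over the range of the group, exceeded Dixon's 95% critical value; chance gives about 1 in 20 groups.

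In NO-SORT, replicate 3 was high for carpel and domain genes: AT4G14301 at 0.913 CPM (others 0.171 to 0.234), AT3G49270 at 4.504 (0.131 to 0.513), STK at 3.469 (0 to 0.285), HEC1 at 3.834 (1.94 to 2.23) and HEC2 at 8.216 (4.33 to 4.75). It was low for PID, at 68.71 CPM (91.9 to 95.8). For HSP17.4 it held the sole count, at 0.06086 CPM. NO-SORT replicate 1 was high for RRTF1 at 1.64 CPM (0.469 to 0.570), SOBIR1 at 25.78 (15.0 to 16.7) and the summed immune receptor kinases at 352.5 (249.3 to 263.7). NO-SORT replicate 2 was high for AT3G61898 at 17.16 CPM, and NO-SORT replicate 4 for VSP2 at 1443.

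In YFP-NEG, replicate 4 was high for ENODL20 at 52.13 CPM (18.7 to 20.1) and AT1G73890 at 47.3 (16.5 to 20). Its summed medial gynoecium level was 390.8 CPM (379.3 to 380.6) and its summed osmotic level 2494 (2750 to 2760). YFP-NEG replicate 3 was high for AT4G22980 at 16.12 CPM, RBOH F at 66.83 and TFL1 at 63.24 (22.8 to 27.5). YFP-NEG replicate 1 was low for CER1 at 58.32 CPM and for the summed jasmonate genes at 4580 (6688 to 6970), and high for PI at 228.7. YFP-NEG replicate 2 was high for the summed primary wall genes at 3643 CPM (2818 to 2946).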

How the results depend on the processing

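The choice of minimum fold moved the counts most of the settings tried. With no minimum fold, 9909 genes differed between YFP-POS and NO-SORT (5504 higher, 4405 lower), 9983 between YFP-POS and YFP-NEG and 8849 between YFP-NEG and NO-SORT; there were 2461 higher and 2401 lower domain genes, 2277 higher and 1121 lower protoplast genes and 2635 opposed genes. At 4-fold or more the counts were 1861, 1356 and 1013, then 108 and 673 domain genes, 571 and 68 protoplast genes and 100 opposed genes. With ALL-SORT replicates 1 to 3 as the reference, which contain reporter cells, 2170 genes differed from the reference, 146 domain genes were higher and 197 genes were opposed. The reference minus NO-SORT then turned positive for HEC3 (2.78), DOF4.7 (2.55), AT4G14301 (2.61), SHP2 (0.38, not called), SHP1 (1.27), HEC1 (1.61), HEC2 (1.65) and STY1 (1.41). That difference became called for WAG2 (2.43) and SPT (1.07), and stayed negative and was not called for CRC (-0.54) and NTT (-0.19). NO-SORT contains reporter cells too, and the reason for these differences was not tested.

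Leaving out 1 library at a time gave 3808 to 4468 genes between YFP-POS and NO-SORT, 3839 to 4389 between YFP-POS and YFP-NEG, 2624 to 2953 between YFP-NEG and NO-SORT, 289 to 414 higher and 1362 to 1958 lower domain genes, 820 to 1059 higher and 313 to 441 lower protoplast genes, and 587 to 725 opposed genes. With the replicate block between YFP-POS and YFP-NEG, 1294 genes were higher and 2626 lower, against 1436 and 2682 unpaired. With the replicate block over all 3 groups, 1546 were higher and 2505 lower than NO-SORT. Counts over all genes under the other scalings, filters, DESeq2 1.42.0 and limma-voom (limma 3.58.1) were within 1.5 times the main ones; counts within single lists moved more, as given beside the heat shock, wall, jasmonate, receptor and cell division lists. With library totals, higher calls of the protoplast step were 49.4% of its calls in place of 59.7%. No log2 fold change of a named gene between YFP-POS and NO-SORT or YFP-NEG changed sign past a call. The primary wall median of the domain step changed sign with scaling. Differences in genes at a few counts per library are not detectable at these depths.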

Other observations

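The ALL-SORT libraries are labelled as sorted protoplasts without selection on the reporter. Replicates 1 to 3 served above as an alternative reference only, and replicate 4, whose content is in doubt, was left out of that reference. For the wound and touch list, 3 of them had a summed CPM near that of YFP-NEG. Replicate 4 had 2194, the lowest of the 4 and above the 72.9 to 280.2 of NO-SORT. For the heat shock list, replicate 4 had 576 against 3091 in the highest ALL-SORT library, and for the epidermis list it had 4578 against 1837 in the lowest. RRTF1 stood at 892, 1215, 1239 and 253.5 CPM in ALL-SORT replicates 1 to 4, CER1 at 127.3, 175.1, 178.7 and 410.2, and SHP2 at 7.61, 11.6, 6.79 and 6.81.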
